A study of Mus with 18 samples.

Results

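The integrated stress response and the unfolded protein response were followed in lens epithelial cells (LECs) through 8 genes, namely Atf4 (ENSMUSG00000042406), Ddit3 (ENSMUSG00000025408), Trib3 (ENSMUSG00000032715), Chac1 (ENSMUSG00000027313), Asns (ENSMUSG00000029752), Sesn2 (ENSMUSG00000028893), Xbp1 (ENSMUSG00000020484) and Hspa5 (ENSMUSG00000026864). They were chosen by name as regulators and downstream genes of these pathways, and they are 8 of the 55416 mouse gene IDs that were counted, of which 35202 had a count in at least 1 library. All 8 had counts and all 8 passed the low-count filter in every comparison. RNA-seq had been run on lens capsules, with their attached LECs, from adult mice aged 3 to 5 months, collected either at once (0 h) or 6 h after the fiber cell mass had been taken out of the living eye, which models cataract surgery (6 h PCS, post cataract surgery). There were 6 groups of 3 libraries: wild type (WT) at 0 h and 6 h PCS, mice with a germline null allele of the immediate early transcription factor Egr1 (Egr1KO) at 0 h and 6 h PCS, and mice in which a floxed FosB allele was deleted in the lens by a Cre transgene under an alpha-A crystallin promoter (FosBcKO) at 0 h and 6 h PCS. The labels give the strain of every group as C57BL/6, while the name of the stock from which the Egr1KO mice came (B6N; 129-Egr1tm1Jmi/J) denotes a mixed background, so genotype and strain background cannot be told apart in comparisons of Egr1KO with WT. Each library was a pool from 5 animals, mice of both sexes were used, and the FosBcKO groups were compared with WT mice rather than with mice carrying the Cre transgene alone. The FosBcKO deletion was restricted to cells in which the lens promoter is active, so that other cells on the capsule kept the gene.

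In the integrated stress response, kinases that sense amino acid shortage, misfolded protein, viral RNA or heme shortage phosphorylate the translation factor eIF2α, which lowers general protein synthesis while it favors translation of ATF4, a transcription factor for amino acid supply, redox and stress genes. The unfolded protein response of the endoplasmic reticulum (ER) has 3 sensors, of which PERK is itself an eIF2α kinase, IRE1 splices the Xbp1 mRNA into the form that encodes the active transcription factor, and ATF6 raises chaperones such as BiP, the product of Hspa5. Gene-level counts show neither ATF4 translation nor Xbp1 splicing, so the values here are mRNA abundance alone.

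The 18 libraries held 9609295 to 13871592 gene counts, and levels are given as CPM (the count over the library's total gene count, times 1000000), which compare a gene between libraries and not different genes with each other. Counts of the 8 genes ranged from 3 for Chac1 to 11473 for Hspa5 in a single library. The lens epithelial markers Pax6, Foxe3 and Gja1 summed to 669 to 1378 CPM in every library, and in WT their sum was lower at 6 h PCS (669 to 938 CPM) than at 0 h (1065 to 1097 CPM), Pax6 being called lower there (log2 change -1.04 ± 0.19, FDR = 0.00686) and Foxe3 and Gja1 not. The sum was 1066 to 1074 CPM at 0 h and 1086 to 1183 CPM at 6 h PCS in Egr1KO, and 1182 to 1325 and 1089 to 1378 CPM in FosBcKO. The Egr1KO sum hid opposite moves. Pax6 was at 491, 545 and 516 CPM at 0 h and 592, 213 and 297 CPM at 6 h PCS. Foxe3 was at 208, 123 and 176 CPM and then 175, 75.0 and 145 CPM. Gja1 was at 371, 398 and 383 CPM and then 319, 894 and 686 CPM. None of these was called with time in Egr1KO. The endothelial gene Pecam1 was at 0 to 1.06 CPM at 0 h and 0.688 to 10.1 CPM at 6 h PCS, and was called higher in WT (log2 change 3.70 ± 0.48, FDR = 0.0022) and Egr1KO (2.57 ± 0.75, FDR = 0.0431). The red blood cell markers Hba-a1 and Alas2 summed to 0.582 to 27.5 CPM at 0 h and 25.3 to 118 CPM at 6 h PCS, and the pigmented cell markers Pmel, Tyr and Dct to 10.5 to 76.4 CPM at 0 h and 27.9 to 291 CPM at 6 h PCS, so marker RNA of other cells was mostly higher at 6 h PCS. The part of these marker differences in the results below was not tested. Egr1 averaged 124 CPM in WT and 187 CPM in Egr1KO at 0 h, and 1704 and 3339 CPM at 6 h PCS, while Fosb averaged 13.6 CPM in WT and 10.3 CPM in FosBcKO at 0 h, and 1075 and 1651 CPM at 6 h PCS. Neither gene was called lower in the libraries labelled as its knockout. The floxed FosB allele loses some of its exons, and a gene total still counts the others, so the Fosb total checks nothing about the labels. Which part of Egr1 its null allele still transcribes is not given in the sources used here, so the Egr1 total could not check the labels either. The knockout groups are those so labelled. Apart from these libraries, the study reports that Egr1 protein was absent from Egr1KO mice by immunofluorescence. It reports the FosB deletion by PCR of lens DNA and the loss of FosB protein by immunofluorescence.

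**Figure D1:**
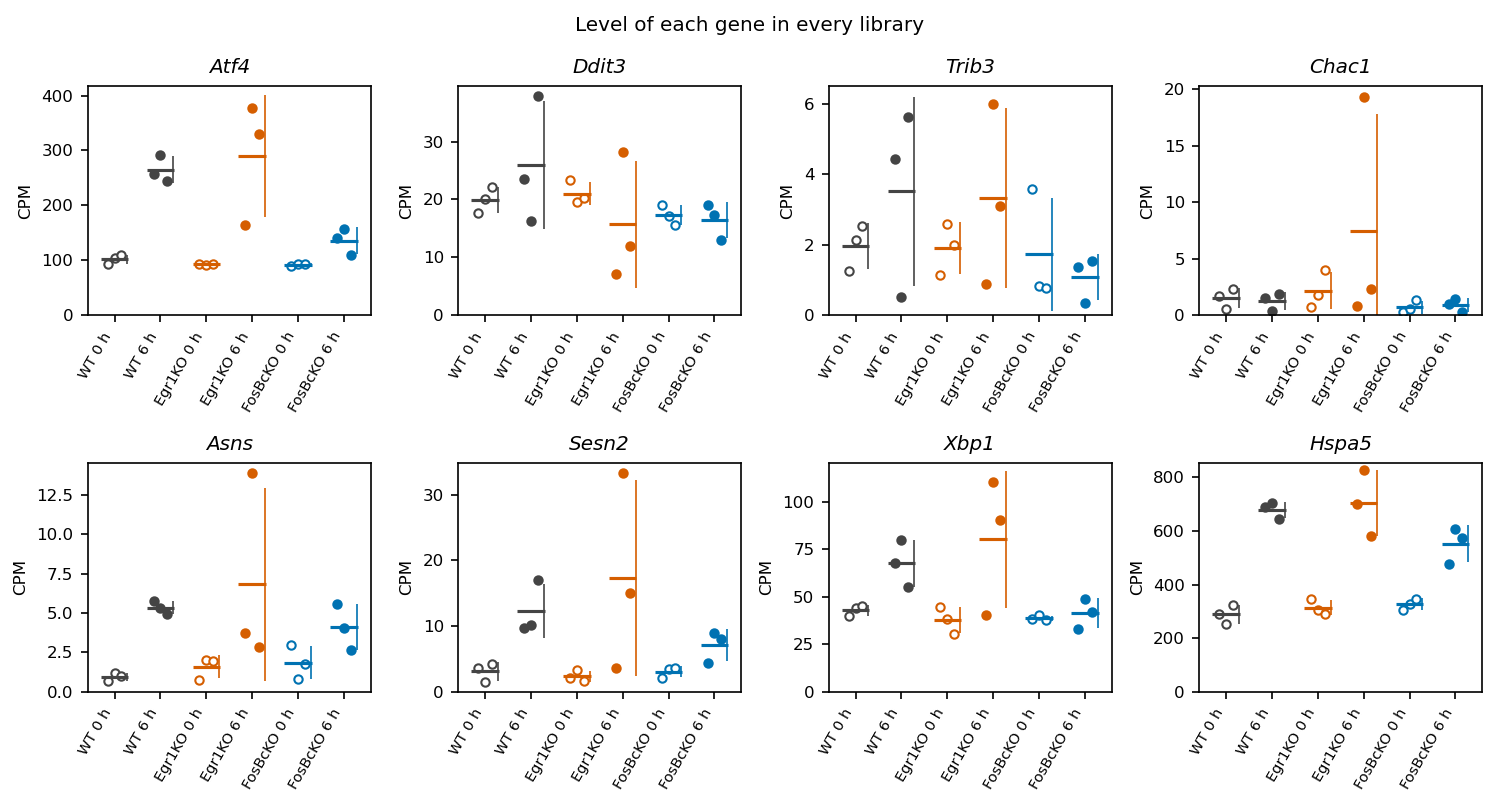
Level of each of the 8 genes in CPM (vertical axis, from 0, a separate scale for each gene) in the 18 libraries, with open points at 0 h, filled points at 6 h PCS, a horizontal bar at the mean of the 3 libraries and a vertical line of 1 SD either side, stopped at 0. The FosBcKO 6 h points of Atf4 and Hspa5 lie above their 0 h points and below all WT 6 h points, which for Hspa5 does not hold once libraries are scaled as in the tests (TMM), while Ddit3 overlapped between all neighboring groups.

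In WT LECs, 4 of the 8 genes rose by 6 h PCS and none fell. The master regulator Atf4 rose 2.43 fold, the asparagine synthetase gene Asns 5.27 fold, the stress-induced sestrin Sesn2 3.69 fold, and the ER chaperone gene Hspa5 2.19 fold. The other 4, Ddit3, Trib3, Chac1 and Xbp1, did not pass. A gene was called where its false discovery rate (FDR) over all genes tested was at most 0.05 and its change exceeded 2 fold, and this applied to 17.1% of the 15440 genes tested in WT, 13.5% of them being higher at 6 h PCS. In 5 of the 8 genes (Atf4, Asns, Sesn2, Xbp1 and Hspa5) every 6 h library lay above every 0 h library, against 28.2% of all genes tested (26.5% on CPM scaled by TMM, the trimmed mean of M values that the tests use, where the same 5 did not overlap). The median log2 fold change of the 8 genes was 0.92, beside -0.02 over all genes tested. In pooled tissue, fewer cells of a type and less RNA per cell cannot be told apart. Leaving out any 1 of the 6 libraries left the WT count of called genes at 4.

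Atf4 encodes the transcription factor at the head of the integrated stress response. Its level was 92.4, 104 and 109 CPM in WT at 0 h and 258, 292 and 245 CPM in WT at 6 h PCS. In Egr1KO it was 93.8, 90.5 and 92.9 CPM at 0 h and 165, 376 and 330.1 CPM at 6 h PCS. The 0 h libraries of these genotypes lay close together and well below every 6 h library, with the first Egr1KO 6 h library standing lowest of its group. In FosBcKO the level was 88.9, 92.6 and 93.7 CPM at 0 h and 141, 157 and 109 CPM at 6 h PCS, so the FosBcKO 6 h libraries lay above their own 0 h libraries and below every 6 h library of the other genotypes. On the log2 scale the change with time was 1.28 ± 0.17 (SE) in WT (FDR = 0.00231), 1.69 ± 0.26 in Egr1KO (FDR = 0.00614) and 0.57 ± 0.17 in FosBcKO (FDR = 0.0398). The FosBcKO change was 1.49 fold and so under the 2-fold minimum. In order of mean level, Egr1KO at 6 h PCS (290.4 CPM) and WT at 6 h PCS (265 CPM) overlapped, FosBcKO at 6 h PCS (136 CPM) did not overlap with WT at 6 h PCS, and the WT (102 CPM), Egr1KO (92.4 CPM) and FosBcKO (91.7 CPM) groups at 0 h overlapped with their neighbors.

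Ddit3 encodes CHOP, a transcription factor induced downstream of ATF4 that is known for its part in stress-related cell death. Its level in WT was 17.7, 20.0 and 22.2 CPM at 0 h and 23.6, 16.2 and 37.9 CPM at 6 h PCS, so the 6 h libraries lay on both sides of the 0 h range. In Egr1KO it was 23.3, 19.5 and 20.2 CPM at 0 h and 7.13, 28.1 and 12.0 CPM at 6 h PCS. In FosBcKO it was 19.0, 17.2 and 15.5 CPM at 0 h and 19.1, 17.4 and 13.1 CPM at 6 h PCS. Unlike Atf4, Ddit3 passed the test in no genotype. The log2 change was 0.25 ± 0.27 in WT (95% interval -0.37 to 0.86, FDR = 0.528), -0.39 ± 0.41 in Egr1KO (FDR = 0.523) and -0.06 ± 0.22 in FosBcKO (FDR = 0.87). Without the second Egr1KO library at 6 h PCS, which was the highest, the Egr1KO value was -1.03 and was called lower (FDR = 0.0422).

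Trib3 encodes a pseudokinase that ATF4 and CHOP induce and that acts back on ATF4 signaling. Its level was 1.24, 2.13 and 2.53 CPM in WT at 0 h and 4.43, 0.504 and 5.62 CPM at 6 h PCS, the second 6 h library lying below all 0 h libraries with a count of 5. In Egr1KO it was 1.14, 2.59 and 1.98 CPM at 0 h and 0.891, 5.98 and 3.11 CPM at 6 h PCS. In FosBcKO it was 3.57, 0.829 and 0.776 CPM at 0 h and 1.37, 0.346 and 1.55 CPM at 6 h PCS. All 6 groups overlapped with their neighbors in level, and the log2 changes with time were 0.69 ± 0.74 in WT (FDR = 0.516), 0.84 ± 0.68 in Egr1KO (FDR = 0.401) and -0.68 ± 0.82 in FosBcKO (FDR = 0.574). Counts of 4 to 83 stood behind these values. The lowest, in the second FosBcKO 6 h library, has a 95% Clopper-Pearson interval of 0.0942 to 0.885 CPM, which covers counting error only.

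Chac1 encodes a gamma-glutamylcyclotransferase that breaks down glutathione and is a target of ATF4. Its level in WT was 1.72, 0.533 and 2.34 CPM at 0 h and 1.51, 0.403 and 1.91 CPM at 6 h PCS, which are nearly the same ranges. In Egr1KO it was 0.734, 1.82 and 3.95 CPM at 0 h and 0.792, 19.3 and 2.35 CPM at 6 h PCS. The second Egr1KO 6 h library, with a count of 268 (95% Clopper-Pearson interval 17.1 to 21.8 CPM), stood apart from the other 17 libraries, which ranged from 0.258 to 3.95 CPM. In FosBcKO it was 0.268, 0.518 and 1.36 CPM at 0 h and 0.944, 1.47 and 0.258 CPM at 6 h PCS. No change with time passed, with log2 values of -0.38 ± 0.74 in WT (FDR = 0.735), 1.79 ± 1.09 in Egr1KO (FDR = 0.272) and 0.32 ± 0.92 in FosBcKO (FDR = 0.825). The Egr1KO value rested on that 1 library, and without it the log2 change was -0.35 (FDR = 0.818).

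Asns encodes asparagine synthetase, which makes asparagine from aspartate and glutamine and is a classical gene of the amino acid branch of the response. Its level in WT was 0.670, 1.16 and 0.973 CPM at 0 h, on counts of 7, 13 and 10, and 5.75, 5.34 and 4.96 CPM at 6 h PCS. The WT groups were far apart and tight, and the log2 change was 2.40 ± 0.43 (FDR = 0.00634). In Egr1KO the level was 0.734, 2.02 and 1.98 CPM at 0 h and 3.76, 13.9 and 2.83 CPM at 6 h PCS, where all 6 h libraries lay above all 0 h libraries but spread widely, and the log2 change of 2.14 ± 0.69 did not pass (FDR = 0.0598). Without the first Egr1KO 6 h library it was 2.39 and passed (FDR = 0.0254), and without the second, the highest, it was 1.18 (FDR = 0.237). In FosBcKO the level was 2.95, 0.829 and 1.75 CPM at 0 h and 5.58, 4.06 and 2.66 CPM at 6 h PCS, with the highest 0 h library above the lowest 6 h library, and the log2 change was 1.14 ± 0.57 (FDR = 0.169).

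Sesn2 encodes sestrin 2, a stress-induced inhibitor of mTORC1 signaling that also binds leucine. Its level in WT was 3.54, 1.51 and 4.18 CPM at 0 h and 9.71, 10.2 and 17.1 CPM at 6 h PCS, without overlap, and the log2 change was 1.88 ± 0.41 (FDR = 0.0133). In Egr1KO the level was 2.12, 3.26 and 1.56 CPM at 0 h and 3.66, 33.3 and 15.0 CPM at 6 h PCS, a spread of the 6 h libraries that reached from close to the 0 h range to the highest value of all 18 libraries. The Egr1KO log2 change was 2.92 ± 0.71 (FDR = 0.0269). This call was lost without Egr1KO 0 h library 1 (2.87, FDR = 0.101), library 2 (3.21, FDR = 0.0681) or library 3 (2.70, FDR = 0.103), and without Egr1KO 6 h library 3 (2.98, FDR = 0.0698). Without Egr1KO 6 h library 2, the highest, the gene was still called but the log2 change was 2.12 (FDR = 0.0461). In FosBcKO the level was 2.14, 3.42 and 3.59 CPM at 0 h and 4.29, 8.99 and 7.99 CPM at 6 h PCS, without overlap, and the log2 change of 1.23 ± 0.44 did not pass (FDR = 0.0667). Without FosBcKO 6 h library 1 it was 1.47 and passed (FDR = 0.0487).

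Xbp1 encodes the transcription factor of the IRE1 arm, and its unspliced and spliced mRNAs are counted together here. Its level in WT was 39.7, 44.0 and 45.1 CPM at 0 h and 67.8, 79.9 and 55.4 CPM at 6 h PCS. The WT groups did not overlap, but the log2 change of 0.56 ± 0.19 did not pass (FDR = 0.0631). In Egr1KO the level was 44.4, 38.3 and 30.6 CPM at 0 h and 40.3, 110.3 and 90.7 CPM at 6 h PCS, with the first 6 h library inside the 0 h range, and the log2 change was 1.13 ± 0.32 (FDR = 0.0419). That call was lost without Egr1KO 0 h library 1 (1.27, FDR = 0.0923), library 2 (1.11, FDR = 0.118) or library 3 (1.00, FDR = 0.147), and without Egr1KO 6 h library 2 (0.91, FDR = 0.105) or library 3 (1.00, FDR = 0.135). In FosBcKO the level was 38.5, 40.2 and 37.5 CPM at 0 h and 33.0, 48.7 and 42.2 CPM at 6 h PCS, so the 6 h libraries lay on both sides of the 0 h range and the log2 change was 0.11 ± 0.20 (FDR = 0.72).

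Hspa5 encodes BiP, the ER chaperone that holds the 3 ER stress sensors inactive until unfolded protein draws it away. Its level in WT was 289, 253 and 324 CPM at 0 h and 689, 704 and 647 CPM at 6 h PCS. In Egr1KO it was 345, 306 and 291 CPM at 0 h and 702, 827 and 581 CPM at 6 h PCS. In FosBcKO it was 303, 328 and 347 CPM at 0 h and 476, 607 and 575 CPM at 6 h PCS. In each genotype all 6 h libraries lay above all 0 h libraries, and the FosBcKO 6 h libraries lay below every WT 6 h library in CPM. With TMM scaling, Hspa5 was at 438, 639 and 557 CPM in FosBcKO and 667, 697 and 565 CPM in WT at 6 h PCS, which overlap. The log2 change was 1.13 ± 0.19 in WT (FDR = 0.00459), 1.21 ± 0.15 in Egr1KO (FDR = 0.00293) and 0.77 ± 0.18 in FosBcKO (FDR = 0.0145), the last being 1.70 fold and so under the 2-fold minimum.

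**Figure D2:**
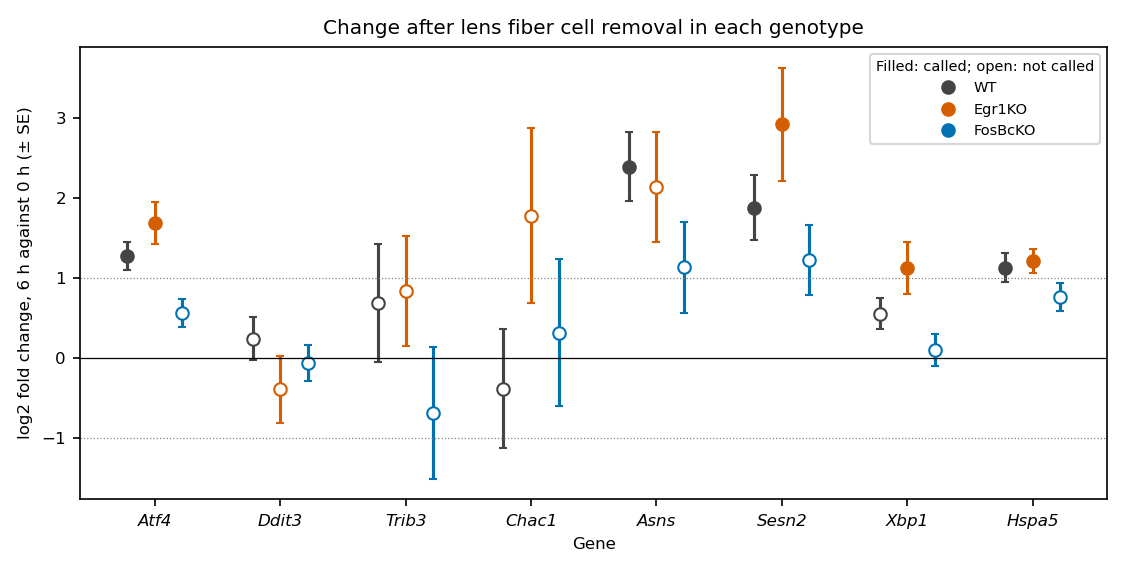
Log2 fold change of 6 h PCS against 0 h (vertical axis) for the 8 genes in WT (grey), Egr1KO (orange) and FosBcKO (blue), with bars of 1 SE from fits to the 6 libraries of each genotype, and filled points where the gene was called. The filled points are Atf4, Asns, Sesn2 and Hspa5 in WT and Atf4, Sesn2, Xbp1 and Hspa5 in Egr1KO, and all FosBcKO points are open.

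In Egr1KO LECs, 4 of the 8 genes rose by 6 h PCS (Atf4, Sesn2, Xbp1 and Hspa5) and none fell, where 12.0% of the 14586 genes tested were called and 9.28% were called higher. Without overlap between time points were 4 of the 8 (Atf4, Asns, Sesn2 and Hspa5), against 18.1% of all genes tested (21.3% on TMM-scaled CPM, where the same 4 did not overlap). The median log2 fold change of the 8 genes was 1.45, beside 0.00 over all genes. The count of called genes was 2 without any 1 of the Egr1KO 0 h libraries or without Egr1KO 6 h library 3, and 5 without Egr1KO 6 h library 1. The Egr1KO 6 h libraries were uneven: the second was the highest of the 3 for 8 of 8 genes, and the first was the lowest for 6 of 8. These libraries also differed in immediate early genes, with Egr1 at 4463, 2083 and 3472 CPM and Fosb at 3044, 464 and 1637 CPM in libraries 1, 2 and 3, so that the library highest in the stress genes was lowest in Egr1 and Fosb. The red blood cell markers were at 110.1, 118 and 59.7 CPM and the pigmented cell markers at 79.7, 174 and 271 CPM in the same order, and the part of these differences in the results was not tested.

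In FosBcKO LECs, 0 of the 8 genes were called by the edgeR quasi-likelihood test at 6 h PCS, where 13.1% of the 15475 genes tested were called. At an unadjusted p under 0.05 by that test there were 3 of the 8 (Atf4, Sesn2 and Hspa5), beside 5766 of the 15475 genes tested, a similar share. DESeq2 called 1 (Sesn2). By FDR alone, without the 2-fold minimum, Atf4 and Hspa5 passed, both higher, as did 14.1% of all genes in that direction. In 3 of the 8 genes (Atf4, Sesn2 and Hspa5) the time points did not overlap, against 22.8% of all genes tested (22.9% on TMM-scaled CPM, where the same 3 did not overlap). The median log2 fold change of the 8 genes was 0.45, beside 0.05 over all genes. The FDR of Atf4 was over 0.05 without FosBcKO 0 h library 1 (0.147), 2 (0.134) or 3 (0.111) or without FosBcKO 6 h library 1 (0.0842) or 2 (0.184), where its log2 change was 0.35. That of Hspa5 was over 0.05 without FosBcKO 0 h library 1 (0.078), 2 (0.0677) or 3 (0.0529) or without FosBcKO 6 h library 2 (0.0632).

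Each knockout was next compared with WT at the same time, which asks whether loss of Egr1 or FosB altered these genes before or after injury. These comparisons share the WT libraries and are not independent of each other. At 0 h, 0 of the 8 genes were called by the edgeR exact test in either knockout, where 0.410% of 14373 genes tested were called in Egr1KO and 0.295% of 14556 in FosBcKO. By that test 0 of the 8 had an unadjusted p under 0.05 in either, beside 920 and 818 of those genes, and DESeq2 called 0. The median log2 difference of the 8 genes was 0.03 in Egr1KO and -0.15 in FosBcKO. For the well-counted genes the 95% intervals at 0 h were narrow, with Atf4 at -0.11 (-0.32 to 0.09) in Egr1KO and -0.15 (-0.37 to 0.07) in FosBcKO, and Hspa5 at 0.15 (-0.06 to 0.36) and 0.18 (-0.06 to 0.41). For Chac1 they ran from -1.04 to 2.13 in Egr1KO and from -2.91 to 0.79 in FosBcKO, and so held differences in either direction.

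At 6 h PCS, 0 of the 8 genes were called between Egr1KO and WT by the edgeR exact test or by DESeq2, where the exact test called 0.736% of 15618 genes. The median log2 difference was 0.38, beside 0.03 over all genes. Chac1 had an unadjusted p under 0.05 by the exact test, as had 1511 of the 15618 genes. Its log2 difference was 2.71 ± 1.07 (FDR = 0.307), and the FDR of the other 7 was at least 0.805. Without the first Egr1KO library at 6 h PCS, Chac1 was called higher (3.24, FDR = 0.0207), and without the second, the library that stood apart, its log2 difference was 0.60 (FDR = 0.838). The log2 difference was 0.33 (95% interval -0.37 to 1.03) for Atf4, 0.43 (-0.35 to 1.22) for Xbp1 and 0.25 (-0.30 to 0.81) for Hspa5.

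Between FosBcKO and WT at 6 h PCS, 0 of the 8 genes were called by the edgeR exact test or by DESeq2, where the exact test called 5.41% of 16155 genes. All 8 log2 differences were below 0, with a median of -0.54 beside 0.00 over all genes. Atf4 had the lowest FDR, at 141, 157 and 109 CPM against 258, 292 and 245 CPM, a log2 difference of -0.84 ± 0.24 (95% interval -1.37 to -0.30). It was the 1 gene of the 8 to pass by FDR alone (FDR = 0.0377), as did 1.09% of all genes in that direction, and it was 1.79 fold lower, under the 2-fold minimum. Its FDR was over 0.05 by the quasi-likelihood test (0.123), and also without WT 6 h library 1 (0.16) or 2 (0.137) or without FosBcKO 6 h library 1 (0.13) or 3 (0.257), whereas without FosBcKO 6 h library 2 Atf4 was called lower (-1.04, FDR = 0.0274). In 4 of the 8 genes (Atf4, Sesn2, Xbp1 and Hspa5) every FosBcKO library lay below every WT library in CPM on total counts, against 11.8% of all genes. On TMM-scaled CPM, a comparison chosen after seeing the data here and for the time points above, this held for 1 of the 8, Atf4, against 10.7% of all genes, while Sesn2, Xbp1 and Hspa5 overlapped. The log2 difference was -0.63 ± 0.38 for Sesn2 (FDR = 0.506), -0.58 ± 0.26 for Xbp1 (FDR = 0.318) and -0.17 ± 0.25 for Hspa5 (FDR = 0.872). Trib3 was at -1.55 ± 0.83 (FDR = 0.36) and was called lower without WT 6 h library 2, the WT library with a count of 5 (-2.06, FDR = 0.0399). In these same libraries 4 of the 5 leukocyte markers with an ID (Ptprc, Itgam, Adgre1 and Lyz2, not Cd68) were called higher in FosBcKO, and the 5 summed to 26.0 to 26.8 CPM against 11.4 to 14.7 CPM in WT. The corneal epithelial gene Krt12 was at 91.1, 0.259 and 198 CPM in FosBcKO and 60.7, 131 and 1.43 CPM in WT. Their part in the differences of the 8 genes was not tested.

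Whether the response itself differed between genotypes was tested by the interaction of genotype and time over the 18 libraries. None of the 8 genes was called for either knockout by the edgeR quasi-likelihood test or by DESeq2. The former called 0% of the 17469 genes tested in each case, with 1141 genes at an unadjusted p under 0.05 for Egr1KO and 1171 for FosBcKO, and DESeq2 called 2 and 25. For Atf4 the FosBcKO response minus the WT response was -0.76 ± 0.31 on the log2 scale (95% interval -1.41 to -0.12), the 1 interaction of the 8 genes with an unadjusted p under 0.05, and it did not pass over all genes (FDR = 0.664). For Hspa5 it was -0.42 (-0.91 to 0.07, FDR = 0.784) and for Asns -1.32 (-3.07 to 0.43, FDR = 0.805). For Egr1KO the interaction was 0.39 (-0.25 to 1.04) for Atf4, 1.02 (-0.65 to 2.69) for Sesn2 and 0.06 (-0.43 to 0.55) for Hspa5, with an FDR of at least 0.824 for all 8 genes. The median interaction of the 8 genes was 0.26 for Egr1KO and -0.61 for FosBcKO, beside 0.02 and -0.03 over all genes. So the calls of Atf4 and Hspa5 in WT and Egr1KO but not in FosBcKO are not shown to be a difference between genotypes by this test.

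**Figure D3:**
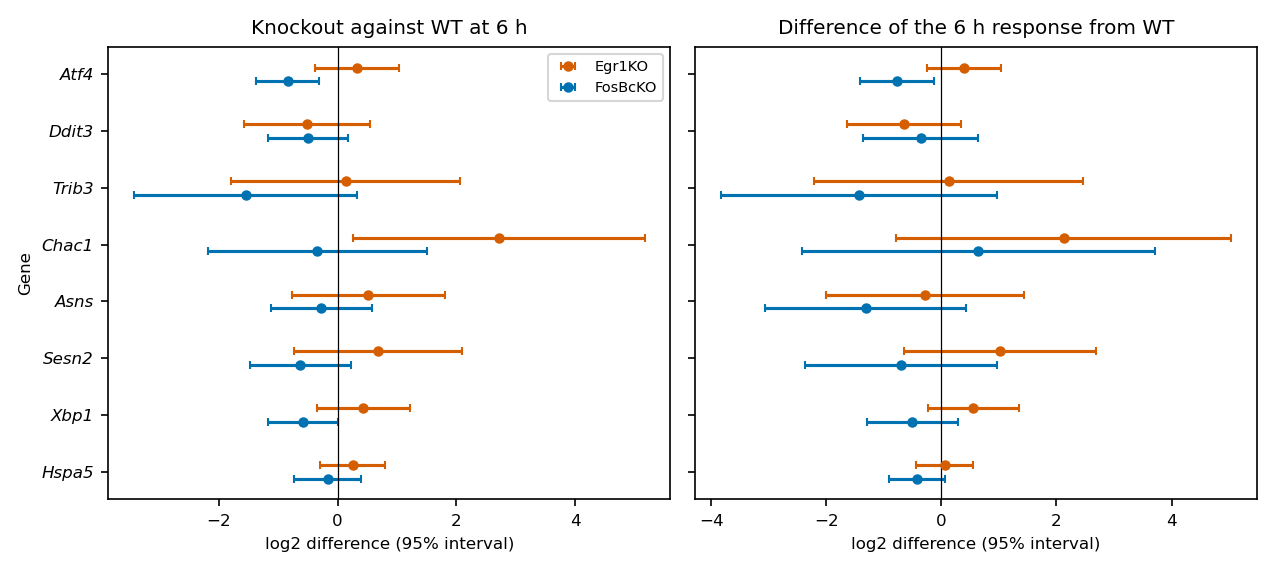
Log2 difference (horizontal axis) of each gene between knockout and WT at 6 h PCS (left) and between the knockout and WT responses from 0 h to 6 h PCS (right), with 95% intervals from quasi-likelihood fits, Egr1KO in orange and FosBcKO in blue. All 8 FosBcKO points lie below 0 on the left, where the interval of Atf4 runs from -1.37 to -0.30, and where the interval of Chac1 in Egr1KO is the widest.

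The other genes of the pathways were read from lists set by name. A name could be given only to IDs that the study's own supplementary gene tables pair with a symbol. Those tables are shortened and ordered by significance, most of them on these same libraries, so genes that moved are more likely to be covered and the counts are not independent evidence. For the list counts in WT, the share over all 15440 genes tested was 17.1% called and 13.5% called higher. Of 9 genes for the eIF2α kinases and the regulators that act on eIF2α phosphorylation, 7 could be read, and in WT 2 rose, 0 fell and the median log2 change was 0.03. The 2 are the subunits that direct the phosphatase to eIF2α and so end the response. Ppp1r15a (GADD34), the inducible subunit, was at 90.4, 80.7 and 97.2 CPM at 0 h and 325, 312 and 164 CPM at 6 h PCS, a log2 change of 1.49 ± 0.29 (FDR = 0.00861). Ppp1r15b, the constitutive subunit, was at 54.6, 52.4 and 60.8 CPM at 0 h and 128, 159 and 93.5 CPM at 6 h PCS, a log2 change of 1.09 ± 0.23 (FDR = 0.012). The time points did not overlap for either gene. The PERK gene Eif2ak3 was at 0.03 ± 0.21 (FDR = 0.926).

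Of 15 further genes listed by name as ATF4 and CHOP targets, 9 could be read, and in WT 3 rose and 1 fell, with a median log2 change of 0.30. The list takes in Sesn1, a relative of Sesn2, and whether its genes answer to ATF4 or CHOP in LECs was not tested. Atf3, a stress-induced transcription factor, rose from 69.1, 42.3 and 79.5 CPM to 825, 483 and 336 CPM (3.02 ± 0.40, FDR = 0.00238). The study lists Atf3 among the immediate early transcription factors raised at 6 h PCS, and whether ATF4 raised it here was not tested. Cebpb, a transcription factor of the C/EBP family that pairs with ATF4 and CHOP, rose from 29.7, 19.6 and 51.5 CPM to 174, 92.3 and 145 CPM (1.92 ± 0.36, FDR = 0.00859). Vldlr, a lipoprotein receptor, rose from 38.2, 25.2 and 42.2 CPM to 99.8, 85.9 and 159 CPM (1.59 ± 0.25, FDR = 0.00377). The gene that fell was Eif4ebp1, the translation repressor 4E-BP1, from 19.4, 19.8 and 12.1 CPM to 6.32, 7.26 and 3.05 CPM (-1.72 ± 0.39, FDR = 0.0163), a direction opposite to that of Atf4 and Asns. Cebpb was also the 1 list gene of the pathways called between a knockout and WT, with 286, 292 and 218 CPM in FosBcKO at 6 h PCS against the WT values above (1.09 ± 0.27, FDR = 0.0073).

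Of 26 genes for amino acid transport, amino acid synthesis and tRNA charging, 13 could be read and 12 passed the filter in WT. By the edgeR quasi-likelihood test 4 of the 12 had an unadjusted p under 0.05, beside 6363 of the 15440 genes tested in WT. The test called 0 of the 12, with a median log2 change of -0.33 and a range of -0.91 to 0.74. The rise of Asns was thus not matched by a called rise among the measured genes of this list. By FDR alone Slc7a1 passed as higher (0.74 ± 0.22, FDR = 0.0397) and Shmt2 as lower (-0.69 ± 0.22, FDR = 0.0489). Both were under the 2-fold minimum and are named here after their values were seen. Of 5 ER stress sensor genes only Atf6 could be read, and it rose from 62.2, 62.6 and 61.3 CPM to 150, 174 and 114 CPM (1.14 ± 0.21, FDR = 0.00666). Of 35 genes for ER chaperones, folding and ER-associated degradation, 10 could be read and 0 were called in WT by the same test, with a median log2 change of -0.31 and a range of -0.81 to 0.64. An unadjusted p under 0.05 by that test was found for 5 of the 10, beside the same 6363 of 15440 genes. Derl1, a membrane protein of ER-associated degradation named here after its values were seen, was the lowest of them (-0.81 ± 0.17, FDR = 0.0114, under the 2-fold minimum), where Hspa5 had risen.

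**Figure D4:**
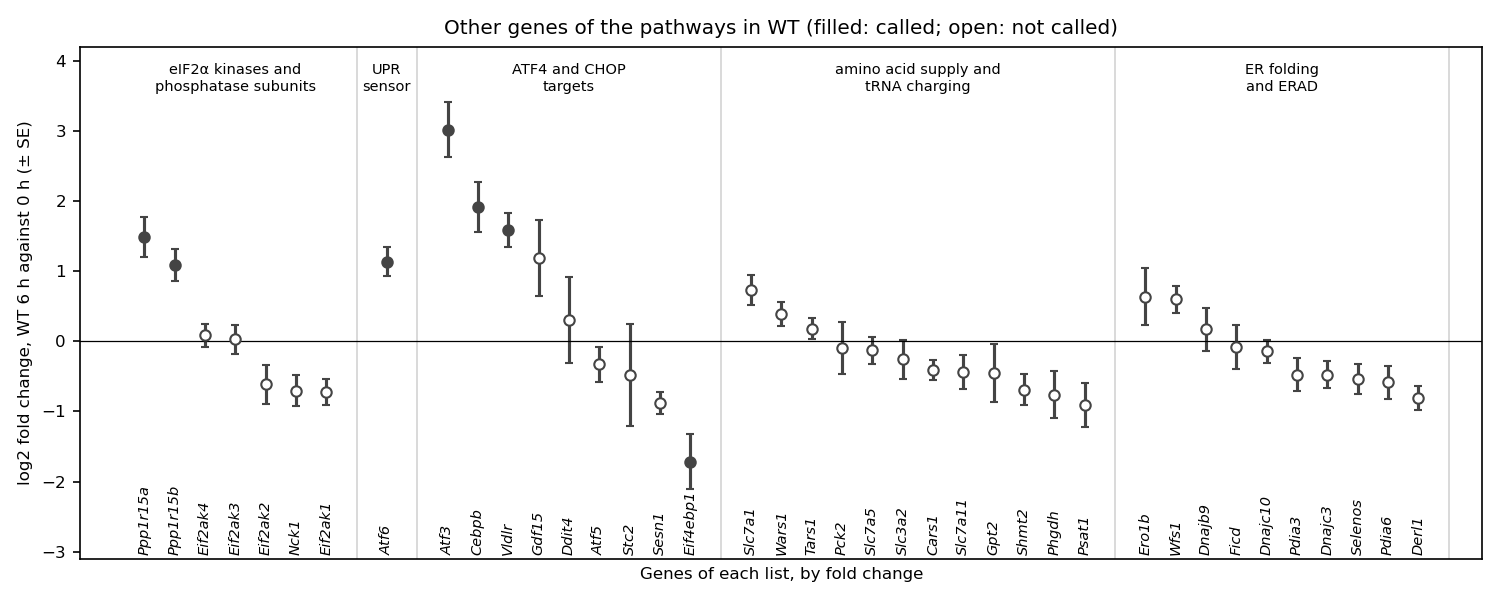
Log2 fold change of WT 6 h PCS against 0 h (vertical axis, bars of 1 SE) for the readable genes of the 5 lists, ordered by fold change within each list, with filled points where the gene was called. Called are Ppp1r15a, Ppp1r15b, Atf6, Atf3, Cebpb, Vldlr and, lower, Eif4ebp1, and the amino acid and ER folding lists lie between -0.91 and 0.74 with no filled point.

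Across the 18 libraries, Pearson correlations of log2 CPM described how the 8 genes varied together, and since libraries share groups and times these are descriptions. Atf4 was correlated with Xbp1 at 0.894, with Sesn2 at 0.875, with Hspa5 at 0.865 and with Asns at 0.776, but with Ddit3 at 0.102. When each library was taken as its deviation from its group mean, so that time and genotype drop out, Atf4 and Xbp1 stayed at 0.838 and Atf4 and Sesn2 at 0.654, Atf4 and Ddit3 were at 0.633, and Atf4 and Hspa5 were at 0.122. Ddit3 was then at 0.720 with Chac1 and at 0.661 with Trib3. Taken over all groups together, Hspa5 thus went with Atf4 across groups and little within them, and Ddit3 the reverse. The within-group values include the uneven Egr1KO 6 h libraries (Atf4 165, 376 and 330.1 CPM, Ddit3 7.13, 28.1 and 12.0 CPM) and were not computed without them. The relation of Ddit3 to Atf4 was not the same in every group. Their libraries stood in the same order in WT at 0 h. In WT at 6 h PCS the order was opposite (Atf4 258, 292 and 245 CPM, Ddit3 23.6, 16.2 and 37.9 CPM). Among the 6249 tested genes with a symbol, the gene most like each member over the 18 libraries was Zswim4 for Atf4 (0.972), Frmd6 for Xbp1 (0.958), Tmem41b for Hspa5 (0.948), Krtap4-16 for Sesn2 (0.922), Ifi203 for Asns (0.885), Map6 for Ddit3 (0.802), Mthfsd for Trib3 (0.796) and Rbm12 for Chac1 (0.727).

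**Figure D5:**
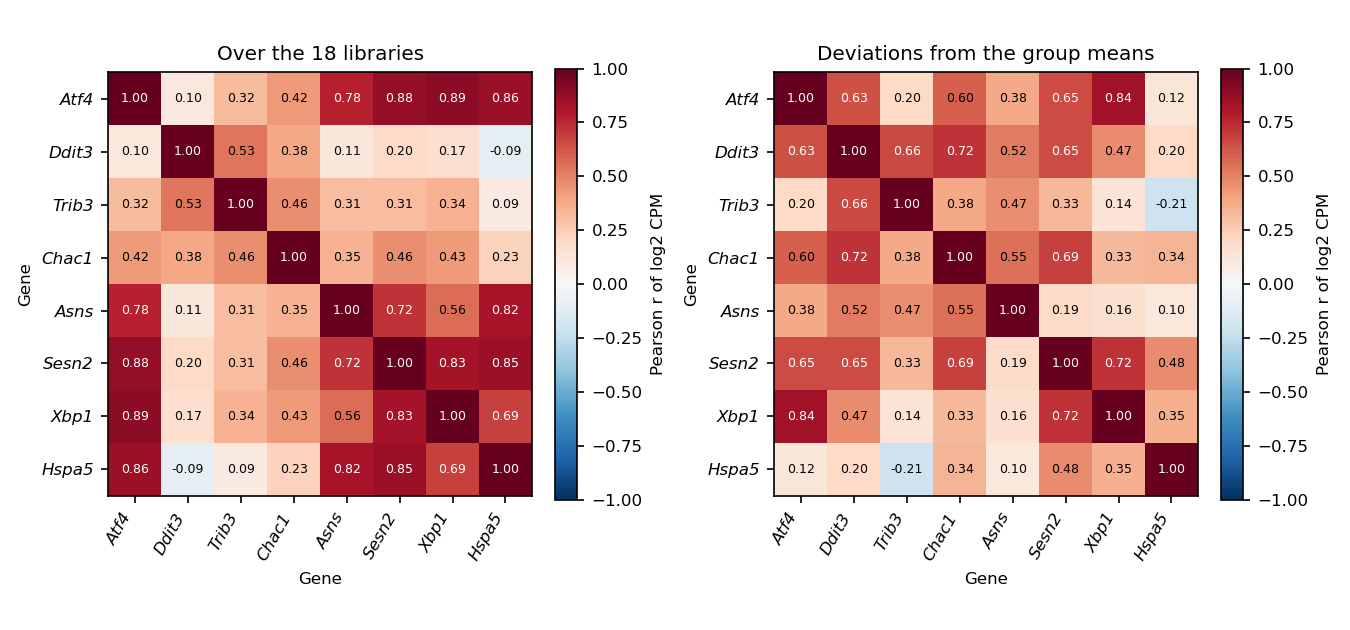
Pearson correlation of log2 CPM between the 8 genes over the 18 libraries (left) and of deviations from the 6 group means (right), on a color scale from -1 to 1. Atf4 and Xbp1 are at 0.894 on the left and 0.838 on the right, whereas Atf4 and Hspa5 go from 0.865 to 0.122 and Atf4 and Ddit3 from 0.102 to 0.633.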

How the data were processed

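Total RNA of pooled lens capsules had been sequenced as paired ends after ribosomal depletion with a stranded low-input kit. Per the labels and the study's methods, the authors aligned read pairs with HISAT2 and made the deposited counts per Ensembl gene with HTSeq in union mode. The submitters' processing notes name GRCm39 and the methods an earlier build, so no coordinates are given. The 5 HTSeq summary lines (34.4% to 48.0% of each file) entered neither library sizes nor tests, and counts were used as deposited.

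CPM is the count over the library's total gene count, times 1000000. Genes were tested with edgeR 4.0.16 in R 4.3.3, with filterByExpr, TMM scaling and robust dispersions, by the quasi-likelihood F-test for 6 h against 0 h and by the exact test for knockout against WT, both of which the study's methods name. The interaction, which they do not describe, was tested by the quasi-likelihood F-test. Benjamini-Hochberg FDR was taken over all genes tested, and calls needed FDR of at most 0.05 and over 2 fold. SEs and 95% intervals come from quasi-likelihood fits, also where the exact test gave the FDR. DESeq2 1.42.0, other scalings and filters, a replicate block and each library left out were tried as alternatives. The scripts were tested on simulated data.

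Members and lists were chosen with earlier results of these data known. Named beside them were up to 4 genes of each list called in each direction in WT at the lowest FDR, list genes called between a knockout and WT, and for each member the gene of highest correlation. Symbols of other genes come from 6306 ID and symbol pairs in the study's tables (clone names and some histone genes were not used). In WT, deviations of same-numbered 0 h and 6 h libraries correlated at 0.103 to 0.244, all over 0.1, the minimum set for pairing. The WT values in the Results are nevertheless from unpaired fits. A fit with the library number as a block, run as an alternative, changed no WT call of a member. Replicates are separate pools of animals. Lens fiber markers, Col3a1 and S100a8 were not analysed here.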

Additional observations from a re-analysis of the deposited data

How the results depend on the processing

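Of 1312 values of the 8 genes under the alternatives, 1283 kept their direction where called and their side of the threshold, 13 lost the call, 16 gained it and 0 reversed. The count of called genes in WT stayed at 4 in every alternative. In Egr1KO at 6 h PCS it was 4, and 2 to 5 when 1 library was left out. In FosBcKO at 6 h PCS it was 0 by the quasi-likelihood test and 1 by DESeq2, by the exact test and with the replicate block (Sesn2 each time, log2 change 1.19 with the block, FDR = 0.0347), 2 without a fold minimum (Atf4 and Hspa5), and 0 to 1 when 1 library was left out. Between FosBcKO and WT at 6 h PCS it was 0, 1 without a fold minimum (Atf4), and 0 to 1 when 1 library was left out, as between Egr1KO and WT at 6 h PCS. At 0 h and for the interactions it stayed at 0 in every alternative, although without a filter 264 and 404 genes of the whole table were called for the Egr1KO and FosBcKO interactions, and 24 for FosBcKO without WT 0 h library 2.

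The replicate block also took Xbp1 in Egr1KO out of the called genes (1.05, FDR = 0.0815), as did scaling by total counts (FDR = 0.0601) and the absence of a filter (FDR = 0.0538), which also took out Sesn2 (FDR = 0.0967). Asns in Egr1KO was called by DESeq2 (FDR = 0.0101), by the exact test (FDR = 0.0183), in a fit of all 18 libraries (FDR = 0.0148) and without a filter (FDR = 0.00696). The FDR of Atf4 in FosBcKO against 0 h was 0.0845 in a fit of all 18 libraries, and against WT at 6 h PCS it was 0.153 with the block and 0.0909 without a filter. The cause was not tested. On TMM-scaled CPM, chosen after seeing the data, the number of the 8 genes without overlap between FosBcKO and WT at 6 h PCS went from 4 to 1, and those between time points stayed at 5, 4 and 3 in WT, Egr1KO and FosBcKO. Across the genotypes, same-numbered libraries correlated at over 0.1 in 6 of 9 pairs between times and 3 of 12 between genotypes, so that outside WT the numbers are not shown to pair pools. Low counts limit Trib3 and Chac1, whose intervals span several fold. They also limit the 0 h levels of Asns (counts of 7, 13 and 10 in WT) and Sesn2 (37, 17 and 43 in WT), and so the size of their fold changes.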

Other observations

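Some amino acid genes that were not called in WT, or not tested there in the case of Slc7a3, were called with time in a knockout. They are named here after their values were seen, and the interaction called 0 of the 13 genes of this list for either knockout. In Egr1KO, 2 of 13 tested genes of amino acid transport, synthesis and tRNA charging rose and 1 fell by 6 h PCS. Of all 14586 genes tested there, 12.0% were called, 1353 of them higher and 393 lower. The arginine and lysine transporter gene Slc7a1 was at 21.5, 40.2 and 30.8 CPM at 0 h and 32.5, 199.5 and 115 CPM at 6 h PCS (log2 change 1.94 ± 0.55, FDR = 0.0434), with the second library highest as for the 8 genes above. In WT Slc7a1 was also higher at 6 h PCS (0.74 ± 0.22, FDR = 0.0397), under the 2-fold minimum. The related transporter gene Slc7a3 went from 0.0816, 0.192 and 0.312 CPM to 1.78, 1.80 and 2.17 CPM (3.32 ± 0.73, FDR = 0.0181), the 0 h values resting on counts of 1 to 3. It passed the low-count filter only through its 6 h libraries (counts of 18, 25 and 23). Its call therefore adds no weight to the count of 2 genes that rose. Slc7a3 also went from 0, 0.104 and 0 CPM to 2.58, 1.04 and 0.688 CPM in FosBcKO. In WT it went from 0.287, 1.33 and 0.487 CPM to 0.471, 0.806 and 1.62 CPM, which overlap. Psat1, of serine synthesis, fell from 134, 100.4 and 118 CPM to 61.6, 55.4 and 50.2 CPM (-1.02 ± 0.17, FDR = 0.00728).

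In FosBcKO, 0 of 12 tested genes of this list rose and 2 fell. Of all 15475 genes tested there, 13.1% were called, 1733 of them higher and 294 lower. Falls were thus the rarer direction over all genes, and the list favors genes that moved. Both list genes that fell act in serine synthesis. Psat1 went from 118, 103 and 131 CPM to 34.6, 46.6 and 75.7 CPM (-1.17 ± 0.27, FDR = 0.019), and Phgdh from 417, 428 and 460 CPM to 111, 238 and 275 CPM (-1.05 ± 0.32, FDR = 0.0481). In WT neither was called (Psat1 -0.91 ± 0.31, FDR = 0.0617), and the interaction called neither gene in either knockout. Among the ATF4 and CHOP targets, Atf3 and Cebpb rose in all 3 genotypes, with log2 changes of 3.51 ± 0.49 and 2.14 ± 0.30 in Egr1KO and 3.02 ± 0.43 and 2.61 ± 0.19 in FosBcKO, as did the phosphatase subunit gene Ppp1r15a (2.22 ± 0.45 and 1.49 ± 0.42) and the sensor gene Atf6 (1.52 ± 0.23 and 1.05 ± 0.23). These genes were called in FosBcKO by the quasi-likelihood test, which called 0 of the 8 genes there. Other targets fell. Of 9 tested, 3 were called lower in FosBcKO (Eif4ebp1 -1.03 ± 0.32, FDR = 0.044, Atf5 -1.01 ± 0.32, FDR = 0.0438, and Stc2 -1.67 ± 0.49, FDR = 0.0358) beside the 2 that rose. In Egr1KO 1 was called lower (Sesn1 -1.23 ± 0.28, FDR = 0.0202) beside 3 that rose (Atf3, Cebpb and Vldlr). Sesn1 was also lower at 6 h PCS in WT (-0.88 ± 0.16, FDR = 0.007), under the 2-fold minimum. Over all genes tested, 294 of 15475 were called lower in FosBcKO and 393 of 14586 in Egr1KO.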
